A study of Mus musculus with 8 samples.

Results

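Phosphatidylcholine synthesis and remodelling were followed through 10 genes that were chosen by gene symbol for their place in the pathway, with earlier results of these data known: the choline transporter gene Slc44a1, the choline kinases Chka and Chkb, the cytidylyl transferases Pcyt1a and Pcyt1b, the cholinephosphotransferases Chpt1 and Cept1, the methyltransferase Pemt, and the lysophospholipid acyltransferases Lpcat1 and Lpcat3. All 10 were found among the 24306 named genes of the array, on 19 probes, and 6 of them had several probes. Each gene was read on its brightest probe, that is, the probe with the highest mean over all arrays, and the other probes are given beside it.

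Phosphatidylcholine is the main lipid of pulmonary surfactant, and alveolar type II cells make and store it in lamellar bodies before birth. Choline enters the cell through transporters, is phosphorylated by choline kinase, is activated to CDP-choline by CTP:phosphocholine cytidylyl transferase, the rate-limiting step, and is joined to diacylglycerol by a cholinephosphotransferase. The acyl chains of the product are then exchanged by phospholipases A and lysophospholipid acyltransferases, which in type II cells yields the disaturated form that lowers surface tension.

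The arrays measured RNA of FACS-sorted cells of E18.5 mouse lungs, labelled as alveolar epithelial cells type I (AECI) or type II (AECII). Experimental embryos carried Exp_Fgfr2bflox, the floxed Fgfr2b allele, Fgfr2b being the epithelial receptor isoform for Fgf10 and Fgf7, and the series title speaks of Sftpc-expressing cells. The mothers of experimental embryos were injected with tamoxifen on E14.5 and again on E15.5, and control embryos came from other females. The labels call the preparation of control samples identical without stating whether this covers the injections, so genotype, litter and any difference in treatment cannot be told apart. Each population was profiled in both genotypes, which made 4 groups of 2 arrays, described in the series as biological replicates. The Cre driver, the full control genotype, the gate of the sort and how many embryos went into an array were not given in the sources used here.

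Values are log2 signals on a scale that ran from 1.34 to 16.0, with quartiles over all spots at 3.07, 5.18 and 8.03. A probe's brightness depends on its own sequence, so levels were compared between groups and never between genes. The 2 probes of Fgfr2 disagreed on the genotypes. The brighter overlapped in AECI (11.03 and 11.37 in control, 11.07 and 11.38 in experimental arrays). In AECII it read 12.60 and 12.62 in control against 12.24 and 12.33 in experimental arrays. The dimmer was higher in AECI experimental arrays (9.30 and 9.42 in control, 9.80 and 9.88 in experimental). In AECII it overlapped (10.70 and 10.79 in control, 10.77 and 10.73 in experimental arrays). The exon they read was not given, so they check no label. The AECI arrays carried type II markers at high signal: Sftpc, the surfactant protein C gene, read 15.45 to 15.65 in AECI and 15.805 to 15.88 in AECII. Mean signal over 6 type I markers was 12.95 to 13.53 in AECI and 9.50 to 10.56 in AECII, and over 6 type II markers 12.999 to 13.16 and 13.88 to 13.92. The AECII arrays also carried airway markers, with a mean over 3 club cell markers of 13.02 to 13.92 (AECI, 10.39 to 11.65) and over 5 ciliated cell markers of 8.59 to 10.46 (AECI, 3.98 to 5.83). AECI control replicate 1 and AECII control replicate 2 had a male pattern (low Xist, high Eif2s3y) and the other 6 arrays did not. Every array of male pattern was a control array, so sex was not balanced between the genotypes.

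The start-site windows of the genes on which the results below turn are shown here, so that the values can be read beside the sequence. They are RefSeq sequences of GRCm38.p6, from 250 bases before to 50 bases after a transcript start, written 5′ to 3′ on the strand of the gene, and capitals mark matches on either strand to 5 motifs: CCAAT (the NF-Y box), CACGTG (E-box), TCACNCCAC (sterol regulatory element), CAAGTG (the core bound by NKX2-1) and GGAAGT (an ETS core). Lpcat1 is shown for its difference between populations, Chka for its difference between genotypes and Pcyt1a, the rate-limiting enzyme, for the only sterol element match among the 10 genes. The windows were Lpcat1 chr13:73466981-73467280, Chka chr19:3851523-3851822 and Pcyt1a chr16:32430671-32430970, all on the plus strand.
Lpcat1: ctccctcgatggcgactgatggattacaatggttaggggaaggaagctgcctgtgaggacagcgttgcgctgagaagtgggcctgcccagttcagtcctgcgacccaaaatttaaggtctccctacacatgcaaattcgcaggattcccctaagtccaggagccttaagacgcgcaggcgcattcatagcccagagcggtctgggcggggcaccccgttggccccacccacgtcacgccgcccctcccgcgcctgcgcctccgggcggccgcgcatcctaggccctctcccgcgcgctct
Chka: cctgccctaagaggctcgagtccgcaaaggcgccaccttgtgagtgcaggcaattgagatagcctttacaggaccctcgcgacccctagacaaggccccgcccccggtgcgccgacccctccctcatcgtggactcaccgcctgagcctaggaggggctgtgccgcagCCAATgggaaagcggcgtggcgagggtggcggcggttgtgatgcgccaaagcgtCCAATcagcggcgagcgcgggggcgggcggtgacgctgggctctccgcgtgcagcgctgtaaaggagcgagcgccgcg
Pcyt1a: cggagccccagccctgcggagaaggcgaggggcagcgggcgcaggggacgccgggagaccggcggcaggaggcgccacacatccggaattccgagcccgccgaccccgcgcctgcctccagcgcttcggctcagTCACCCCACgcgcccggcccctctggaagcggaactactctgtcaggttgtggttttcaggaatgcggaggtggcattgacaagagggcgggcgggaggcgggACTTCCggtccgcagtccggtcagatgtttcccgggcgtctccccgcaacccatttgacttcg

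The Lpcat1 window held none of the 5 motifs. The Chka window held CCAAT at 82 and at 28 bases before the start. The first of 3 annotated Pcyt1a windows held the sterol element, as TCACCCCAC, at 116 bases before the start and GGAAGT, read as ACTTCC, at 13 bases before it. Over all 17 windows of the 10 genes, CCAAT was found in 8 windows of 7 genes, against 37.4% of 32851 mouse windows of the same length. The richest was Lpcat3, with CCAAT at 202, 50 and 8 bases before the start and once 27 bases after it. TCACNCCAC was found in 2 overlapping windows of 1 gene (1.2% of all windows), GGAAGT in 3 windows of 2 genes, Pcyt1a and Chkb (23.8%), CAAGTG in 1 window of Pcyt1b (13.6%) and CACGTG in 0 (7.2%). No 2 matches overlapped in a window, and a match describes letters only.

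Lpcat1 was the only one of the 10 genes to pass the test in any of the 5 comparisons of the design: it was 3.07-fold higher in AECII than in AECI of control lungs. Slc44a1, Cept1 and Lpcat3 were also higher on both AECII arrays than on both AECI arrays in control and in experimental lungs, by 0.50 to 1.06 on the log2 scale, and did not pass. Chka, Chkb and Cept1 were lower on both experimental arrays than on both control arrays within each population. Their differences ran from -0.94 to -0.26 and did not pass either. Of all genes, 18.6% in AECI and 19.8% in AECII were lower without overlap, and the share lower in both was not counted. In the limma fit with Benjamini-Hochberg adjustment over all genes, called here means an adjusted p under 0.05. Between AECII and AECI, 1 of the 10 genes was called in control lungs, where 2.83% of all genes were called, and 0 in experimental lungs, where 2.54% were. Between experimental and control, 0 of 10 were called in AECI (0.00411% of all genes, that is, 1 gene, Alas2) and 0 of 10 in AECII (0% of all genes). At an unadjusted p under 0.05 the counts were 3, 5, 2 and 1 of 10 in the same order, where 16.7%, 21.6%, 12.4% and 8.24% of all genes were.

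The arrays of the groups did not overlap for 5 genes higher and 2 lower in AECII of control lungs, where 23.5% and 22.1% of all genes did so, and for 6 higher and 1 lower in experimental lungs (28.2% and 26.7%). Between genotypes, 1 gene was higher and 6 were lower without overlap in AECI experimental arrays (21.2% and 18.6% of all genes), and 0 were higher and 3 lower in AECII (27.3% and 19.8%). The 6 included Pcyt1b, which was read in the lower part of the scale. The median difference of the 10 genes was 0.12 between populations in control lungs and 0.68 in experimental lungs, against 0.00 and 0.01 over all genes. It was -0.32 between genotypes in AECI and 0.02 in AECII, against 0.04 and 0.07 over all genes. The comparisons share arrays, so their values are given side by side only.

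**Figure D1:**
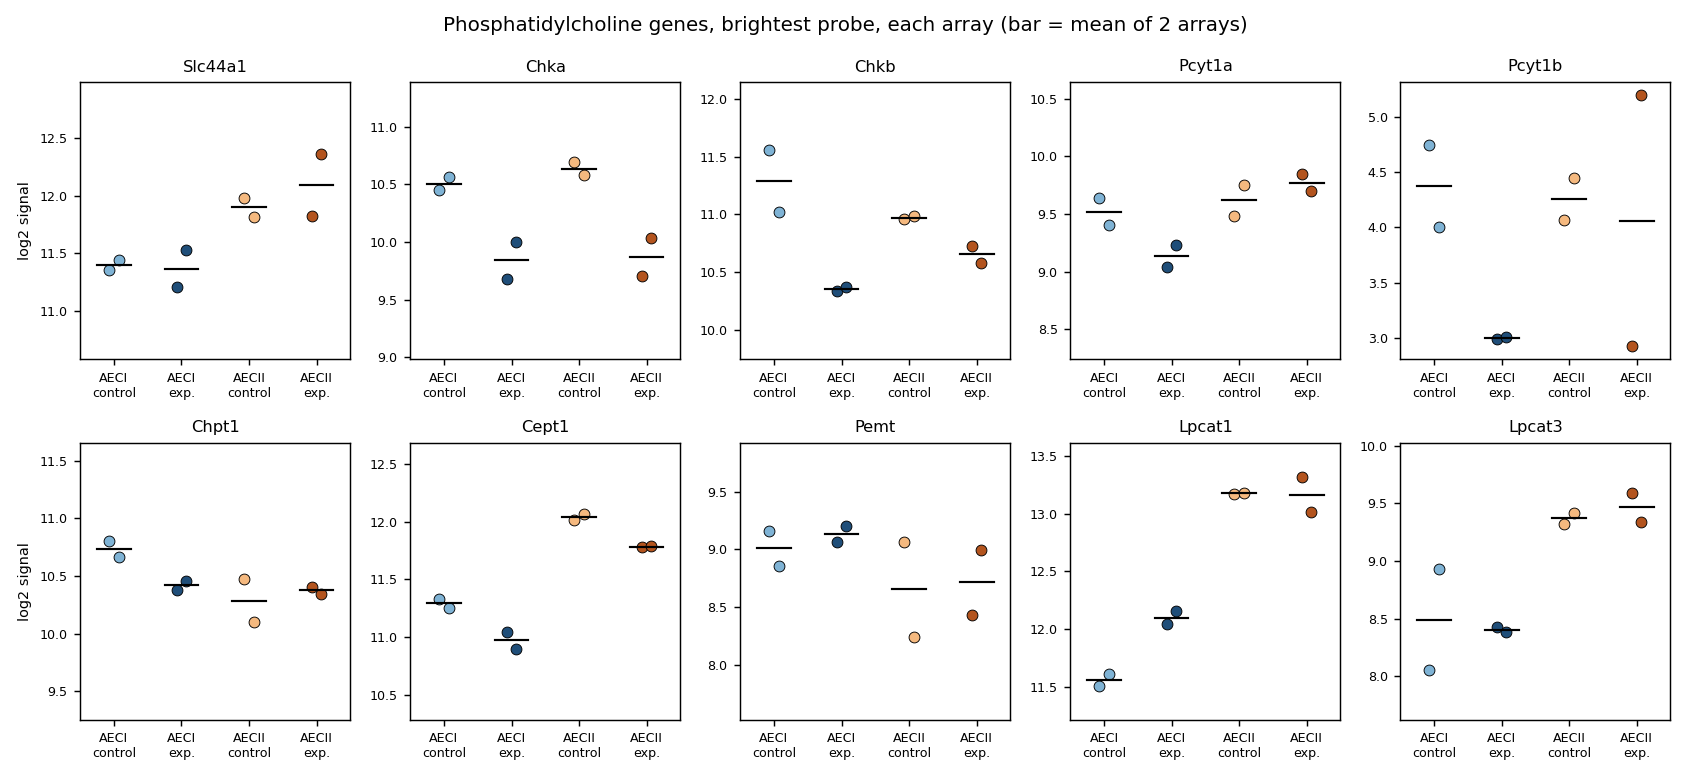
Log2 signal (vertical axes, each spanning a range of its own) of the brightest probe of each of the 10 genes on the 8 arrays, by group (exp. is experimental); points are arrays and bars are means of 2 arrays. Lpcat1 sits at 11.51 to 12.15 in AECI and at 13.02 to 13.32 in AECII, and Chka at 10.45 to 10.69 in controls and at 9.68 to 10.03 in experimental arrays.

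Lpcat1 encodes the acyltransferase that puts a saturated chain on lysophosphatidylcholine in type II cells. Its signal was 11.51 and 11.61 in AECI control, 12.04 and 12.15 in AECI experimental, 13.17 and 13.18 in AECII control, and 13.32 and 13.02 in AECII experimental arrays. Every AECII array was above every AECI array, and both experimental AECI arrays were above both control ones. In control lungs AECII exceeded AECI by 1.62 (SE 0.23, 95% interval 1.06 to 2.18, limma adjusted p = 0.0268), which in bulk RNA cannot separate more cells of a type from more RNA per cell. In experimental lungs the difference was 1.07 (SE 0.23, interval 0.51 to 1.63, adjusted p = 0.0701), 2.10-fold.

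The second Lpcat1 probe gave the same order of the populations. It read 11.03 and 10.998 in AECI control, 11.61 and 11.73 in AECI experimental, 12.42 and 12.57 in AECII control, and 12.75 and 12.72 in AECII experimental arrays. On it AECII exceeded AECI by 1.48 in control lungs (SE 0.22, limma adjusted p = 0.0280) and by 1.06 in experimental lungs (adjusted p = 0.0634). The call was close to the threshold: with any 1 of the 4 control or the 2 AECII experimental arrays left out, Lpcat1 no longer passed, and only without AECI experimental replicate 1 or 2 did it pass, the adjusted p running from 0.0491 to 0.181 and the difference from 1.57 to 1.67. Without both control arrays of male pattern it was 1.57 (adjusted p = 0.263).

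Within AECI the experimental mean of Lpcat1 was 0.54 above the control mean (SE 0.23, interval -0.02 to 1.10, adjusted p = 0.419), and in AECII the difference was -0.01 (interval -0.57 to 0.55). The difference of these genotype differences was -0.55 (SE 0.33, adjusted p = 0.662), in a contrast in which 0% of all genes were called and 2095 had an unadjusted p under 0.05. On the second probe the genotype difference was 0.66 in AECI and 0.24 in AECII (limma adjusted p = 0.331 and 0.814). Its arrays did not overlap between genotypes in either population. The type I and type II marker lists moved with the population difference of Lpcat1, as did the club and ciliated lists: in control lungs 5 of 6 type I markers were called lower in AECII, 1 of 6 type II, 3 of 3 club and 5 of 5 ciliated markers were called higher, and 2 of 3 mesothelial and 1 of 4 mesenchymal markers were called lower. Their part in the Lpcat1 result was not tested.

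Lpcat3 prefers polyunsaturated chains and acts in membrane remodelling of liver and gut. It read 8.06 and 8.93 in AECI control, 8.43 and 8.38 in AECI experimental, 9.32 and 9.42 in AECII control, and 9.59 and 9.34 in AECII experimental arrays. All AECII arrays were above all AECI arrays, and the pair of AECI control arrays lay far apart, with the largest SD of the 10 genes in that group (0.62, against a median of 0.35 over all genes). AECII exceeded AECI by 0.88 in control lungs (SE 0.33, limma adjusted p = 0.259) and by 1.06 in experimental lungs (SE 0.33, adjusted p = 0.141). Its second probe gave 0.98 and 1.09. Between genotypes it differed by -0.09 in AECI (interval -0.90 to 0.72) and by 0.10 in AECII (interval -0.71 to 0.90).

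Slc44a1 encodes a choline transporter of the plasma and mitochondrial membranes (CTL1). The brightest probe read 11.35 and 11.44 in AECI control, 11.21 and 11.53 in AECI experimental, 11.98 and 11.82 in AECII control, and 11.82 and 12.36 in AECII experimental arrays. All AECII arrays were above all AECI arrays. The difference was 0.50 in control lungs (SE 0.28, limma adjusted p = 0.447) and 0.72 in experimental lungs (SE 0.28, adjusted p = 0.207), and the genotypes differed by -0.03 in AECI and 0.19 in AECII, with overlapping arrays.

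The 4 probes of Slc44a1 disagreed. The second, at 9.39 to 9.41 in AECI control and 9.76 to 10.03 in AECII control, gave 0.50 in control and 1.004 in experimental lungs (limma adjusted p = 0.346 and 0.0762). The third ran the other way: it read 7.81 and 7.92 in AECI control against 6.96 and 6.60 in AECII control, a difference of -1.09 (adjusted p = 0.155), and -0.33 in experimental lungs. The fourth, at 5.85 to 6.98 on all arrays, gave 0.29 and 0.08. Which transcripts of the gene each probe reads was not tested.

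**Figure D2:**
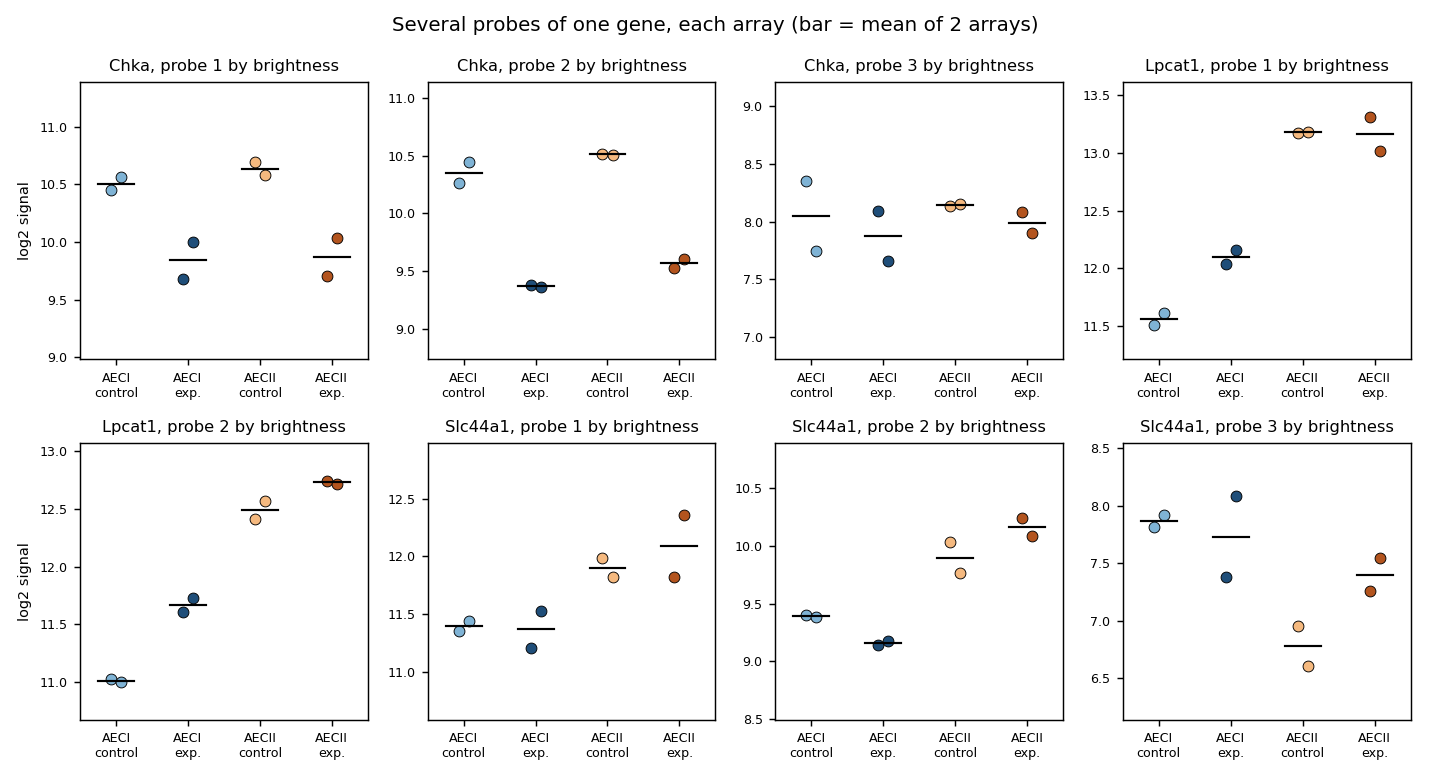
Log2 signal (vertical axes, each spanning a range of its own) on the 8 arrays for 3 probes of Chka, 2 of Lpcat1 and the 3 brightest of Slc44a1, by group; points are arrays and bars are means of 2 arrays. The Lpcat1 probes run alike between populations and the first 2 Chka probes between genotypes. Chka probe 3 overlaps between genotypes over both populations (7.66 to 8.09 in experimental and 7.75 to 8.36 in control arrays), and Slc44a1 probe 3 is lower in AECII than in AECI of control lungs.

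Chka encodes choline kinase alpha, the first committed enzyme of the CDP-choline route. Its brightest probe read 10.45 and 10.56 in AECI control, 9.68 and 10.004 in AECI experimental, 10.69 and 10.58 in AECII control, and 9.71 and 10.03 in AECII experimental arrays. All 4 experimental arrays were below all 4 control arrays, while the populations differed little. The experimental minus control difference was -0.67 in AECI (SE 0.25, interval -1.28 to -0.05, limma adjusted p = 0.369) and -0.77 in AECII (SE 0.25, interval -1.38 to -0.15, adjusted p = 0.564). Averaged over both populations, a contrast chosen after seeing the data, it was -0.72 (SE 0.18, unadjusted p = 0.00648, adjusted p = 0.267), where 0.00411% of all genes were called.

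The second Chka probe separated the genotypes more widely. It read 10.26 and 10.44 in AECI control, 9.37 and 9.36 in AECI experimental, 10.51 and 10.51 in AECII control, and 9.53 and 9.61 in AECII experimental arrays. The differences were -0.99 in AECI and -0.94 in AECII (SE 0.22 each, limma adjusted p = 0.250 and 0.527), and -0.97 averaged over both (SE 0.15, adjusted p = 0.183). The third probe, annotated to another transcript accession, gave -0.18 in AECI, where the arrays of the genotypes overlapped, and -0.15 in AECII, where both experimental arrays (8.08 and 7.90) were below both control arrays (8.135 and 8.16). The difference of genotype differences on the brightest probe was -0.10 (SE 0.36, adjusted p = 0.951), and between populations Chka differed by 0.13 in control (interval -0.48 to 0.74) and by 0.03 in experimental lungs (interval -0.58 to 0.64).

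Chkb encodes choline kinase beta, the partner isoform, whose loss in mice causes a muscular dystrophy. It read 11.56 and 11.02 in AECI control, 10.33 and 10.37 in AECI experimental, 10.96 and 10.98 in AECII control, and 10.73 and 10.58 in AECII experimental arrays. All 4 experimental arrays were below all 4 control arrays, and the single Chkb probe allowed no second reading. The genotype difference was -0.94 in AECI (SE 0.26, interval -1.58 to -0.30, limma adjusted p = 0.288), -0.32 in AECII (SE 0.26, interval -0.96 to 0.32, adjusted p = 0.788) and -0.63 averaged over both populations (SE 0.19, adjusted p = 0.310). AECI control replicate 1, an array of male pattern, stood highest: without it the AECI difference was -0.67.

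Red cell markers moved with genotype beside the kinases. Mean signal over 4 erythroid markers was 10.68 and 10.56 in AECI control against 6.85 and 7.88 in AECI experimental arrays, and 11.36 and 11.42 in AECII control against 9.20 and 8.65 in AECII experimental arrays. In AECI 3 of the 4 markers and in AECII 4 of 4 were lower without overlap (18.6% and 19.8% of all genes), Alas2 alone being called, in AECI. Club and ciliated means were higher in experimental arrays of both populations (club, 10.39 and 10.49 against 11.05 and 11.65 in AECI, 13.02 and 13.09 against 13.92 and 13.58 in AECII, and ciliated, 4.14 and 3.98 against 4.78 and 5.83 in AECI, 9.001 and 8.59 against 10.46 and 9.90 in AECII). Of the 5 ciliated markers in AECI, 3 were higher without overlap (21.2% of all genes). Ccdc153 overlapped there (0.40) and Tmem212 was lower without overlap (-0.44). Type I means were lower in experimental arrays (13.53 and 13.41 against 13.07 and 12.95 in AECI, 10.56 and 10.31 against 9.82 and 9.50 in AECII). Without overlap, 6 of 6 type I markers were lower in AECI and 4 of 6 in AECII (18.6% and 19.8% of all genes). In AECII Pdpn (-0.17) and Hopx (0.07) overlapped. Of 4 mesenchymal markers 2, Col1a1 and Col3a1, were higher without overlap in both populations (21.2% and 27.3% of all genes). The others, Pdgfra and Tcf21, overlapped in both, at 0.62 and 0.49 in AECI and -0.05 and -0.38 in AECII. Type II means overlapped between genotypes in both populations (12.999 to 13.16 in AECI and 13.88 to 13.92 in AECII). Of 3 endothelial markers, 1 was lower without overlap in AECI (18.6% of all genes) and 3 were higher in AECII (27.3%). Of 3 mesothelial markers, 2 were lower and 1 higher without overlap in AECI (18.6% and 21.2%), and 2 were lower in AECII (19.8%). The part of these cells in the Chka and Chkb differences was not tested.

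With a trend of the variance on signal level allowed in the limma prior, Chka and Chkb passed in the average over both populations (adjusted p = 0.0302 and 0.0461), where 1.33% of all genes were called. Under that setting Cept1 joined Lpcat1 between populations in control lungs (Cept1 adjusted p = 0.00536, 7.9% of all genes called). In experimental lungs Lpcat1, Cept1, Lpcat3 and Slc44a1 passed (adjusted p = 0.000458, 0.0032, 0.0329 and 0.0287, 11% of all genes called). Neither kinase passed within a single population with the trend.

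**Figure D3:**
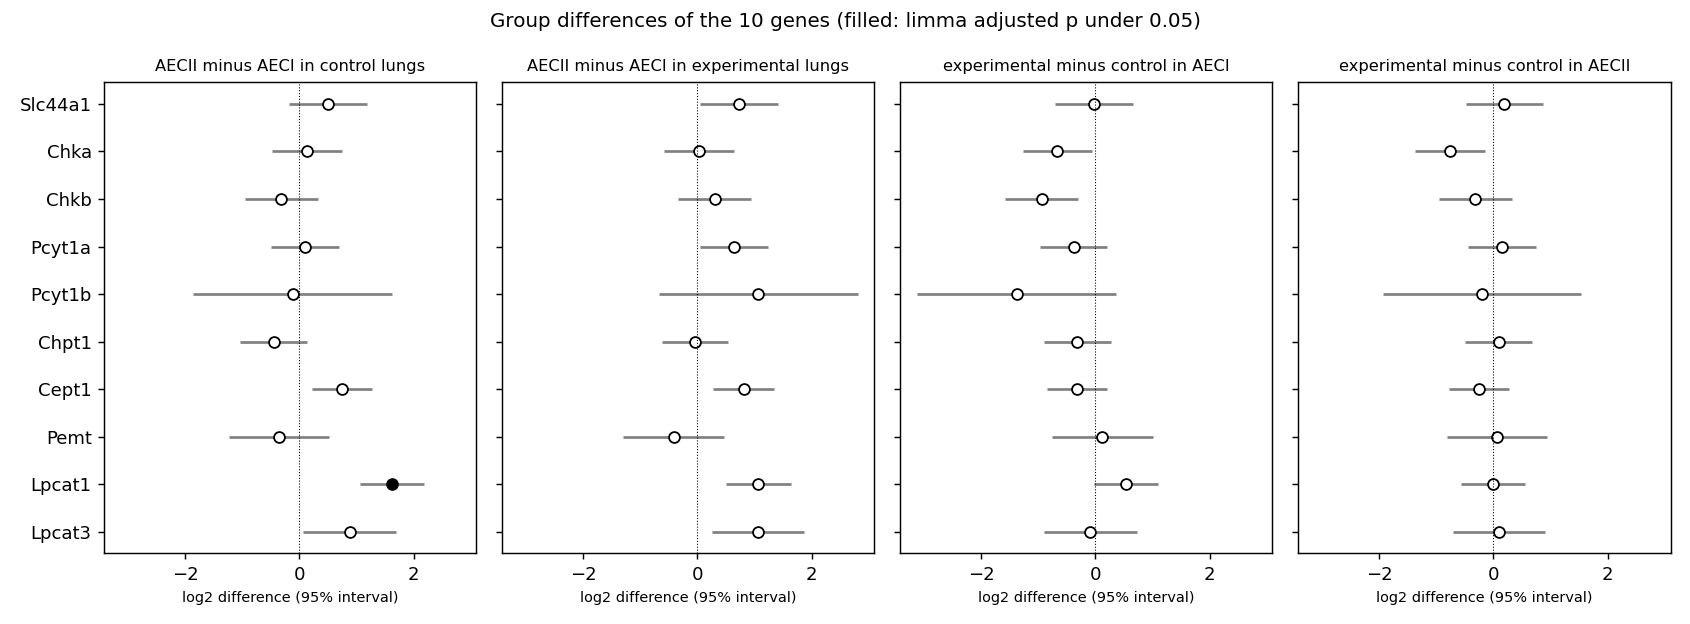
Log2 differences (horizontal axes) with 95% intervals from the limma fit for the 10 genes in the 4 comparisons, from left to right AECII minus AECI in control and in experimental lungs and experimental minus control in AECI and in AECII; filled points have an adjusted p under 0.05. Lpcat1 in control lungs, at 1.62, is the only filled point, and the intervals of Chka lie below 0 in both genotype panels.

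Pcyt1a, the cytidylyl transferase of most tissues, read 9.64 and 9.40 in AECI control, 9.04 and 9.24 in AECI experimental, 9.49 and 9.76 in AECII control, and 9.85 and 9.70 in AECII experimental arrays. Both AECI experimental arrays were the lowest, and the AECII control arrays overlapped with both remaining groups. AECII exceeded AECI by 0.10 in control lungs (interval -0.49 to 0.70) and by 0.64 in experimental lungs (SE 0.24, limma adjusted p = 0.205). The genotype difference was -0.38 in AECI (SE 0.24, adjusted p = 0.571) and 0.15 in AECII (interval -0.44 to 0.74), and these differed by 0.53 (SE 0.35, adjusted p = 0.686).

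Pcyt1b, a second cytidylyl transferase gene used in brain and gonads, was read in the lower part of the scale, at 4.75 and 4.01 in AECI control, 2.99 and 3.003 in AECI experimental, 4.07 and 4.45 in AECII control, and 2.92 and 5.20 in AECII experimental arrays. Both AECI experimental arrays and AECII experimental replicate 1 were below the lower quartile of all spots. The pair of AECII experimental arrays spanned nearly the whole range of the gene (SD 1.61). Its differences had an SE of 0.72, so its genotype difference of -1.38 in AECI (limma adjusted p = 0.491) had an interval of -3.12 to 0.36.

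Cept1 encodes the choline and ethanolamine phosphotransferase of the endoplasmic reticulum. It read 11.33 and 11.26 in AECI control, 11.05 and 10.90 in AECI experimental, 12.01 and 12.06 in AECII control, and 11.78 and 11.79 in AECII experimental arrays. The 4 groups did not overlap, with AECII above AECI and, within each population, control above experimental. AECII exceeded AECI by 0.75 in control lungs (SE 0.22, interval 0.22 to 1.27, limma adjusted p = 0.152) and by 0.81 in experimental lungs (SE 0.22, interval 0.28 to 1.33, adjusted p = 0.101). The genotype differences were -0.32 in AECI and -0.26 in AECII (SE 0.22 each, adjusted p = 0.591 and 0.794).

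Chpt1 encodes the choline-specific phosphotransferase of the Golgi. It read 10.80 and 10.67 in AECI control, 10.38 and 10.46 in AECI experimental, 10.47 and 10.10 in AECII control, and 10.40 and 10.35 in AECII experimental arrays. The AECI control arrays were the highest, and the remaining groups overlapped, so in control lungs Chpt1 stood opposite to Cept1: the AECII minus AECI difference was -0.45 (SE 0.24, limma adjusted p = 0.427). In experimental lungs the population difference was -0.04 (interval -0.63 to 0.54). The dimmer probe of Chpt1 read 7.61 and 7.70 in AECI control against 6.93 and 6.92 in AECII control, and 7.53 and 7.57 in AECII experimental arrays, a population difference of -0.72 (adjusted p = 0.160) and a genotype difference in AECII of 0.62 (adjusted p = 0.563) where the brighter probe gave 0.09.

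Pemt, which makes phosphatidylcholine from phosphatidylethanolamine and acts chiefly in liver, read 9.16 and 8.86 in AECI control, 9.07 and 9.20 in AECI experimental, 9.06 and 8.24 in AECII control, and 8.43 and 8.996 in AECII experimental arrays. The groups overlapped except between populations in experimental lungs, where the AECII minus AECI difference was -0.42 (SE 0.36, limma adjusted p = 0.557). Its other probe was dim (2.03 to 4.96) and gave 1.15 between populations in control lungs, where the brighter one gave -0.36.

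The wider phospholipid genes were 50 enzymes and transporters. In control lungs 4 were called higher and 3 lower in AECII (2.83% of all genes called in either direction), and in experimental lungs 3 higher and 1 lower (2.54%). Between genotypes 0 of 50 were called in either population by limma, with 7 in each at an unadjusted p under 0.05 (12.4% of all genes in AECI and 8.24% in AECII). The median difference of the 50 was -0.04 and 0.19 between populations in control and experimental lungs and 0.05 and 0.08 between genotypes in AECI and AECII.

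Among choline transporters, Slc44a4, which also carries thiamine pyrophosphate, read 2.22 and 2.14 in AECI control against 4.24 and 5.18 in AECII control arrays (2.53, SE 0.37, limma adjusted p = 0.0272). The AECI control arrays were below the lower quartile of all spots. Its experimental arrays overlapped between populations (4.57 and 4.25 in AECI, 4.44 and 4.81 in AECII), a difference of 0.22. Flvcr2, a choline transporter of the blood-brain barrier, went the other way, at 10.93 and 11.12 in AECI control against 9.29 and 8.70 in AECII control (-2.03, SE 0.28, adjusted p = 0.0259) and -1.52 in experimental lungs (adjusted p = 0.0526).

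In the supply of diacylglycerol, Gpam, the mitochondrial glycerol-3-phosphate acyltransferase, was the 1 of 12 genes called. It read 12.46 and 12.69 in AECI control, 12.79 and 12.72 in AECI experimental, 14.11 and 14.15 in AECII control, and 14.01 and 14.42 in AECII experimental arrays. It was higher in AECII by 1.56 in control and 1.46 in experimental lungs (SE 0.25 each, limma adjusted p = 0.0345 and 0.0452), with no overlap between populations. None of the 7 genes of the phosphatidylethanolamine and phosphatidylserine branch and none of the 11 of transfer, breakdown and choline oxidation were called between populations, with medians of 0.33 and -0.09, and of -0.24 and 0.69, in control and experimental lungs.

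Of 12 genes of lysophospholipid acylation and phospholipase A, 4 were called in control lungs. Pla2g4a, the cytosolic phospholipase that releases arachidonate, read 7.61 and 7.92 in AECI control, 7.82 and 7.76 in AECI experimental, 9.69 and 9.42 in AECII control, and 10.18 and 10.36 in AECII experimental arrays. It was higher in AECII by 1.79 and 2.48 (SE 0.25 each, limma adjusted p = 0.0249 and 0.0120), the largest difference of the wider genes called in experimental lungs. Pla2g1b, a secreted phospholipase first known from pancreas, was higher in AECII by 1.63 and 1.33 (adjusted p = 0.0268 and 0.0464). Both lost both calls when all probes of a gene were averaged: Pla2g4a was then 0.84 and 0.74 (adjusted p = 0.141 and 0.154) and Pla2g1b 1.02 and 0.93 (adjusted p = 0.0704 and 0.0842).

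Lower in AECII were Prdx6, a peroxiredoxin with phospholipase A2 activity that acts on surfactant lipid in lung, and Mboat2, a lysophospholipid acyltransferase. Prdx6 read 13.33 and 13.07 in AECI control, 12.89 and 12.82 in AECI experimental, 11.64 and 11.68 in AECII control, and 11.51 and 11.57 in AECII experimental arrays. All AECI arrays were above all AECII arrays, and the differences were -1.54 in control and -1.31 in experimental lungs (SE 0.23 each, limma adjusted p = 0.0279 and 0.0452). Mboat2 differed by -1.90 in control (adjusted p = 0.0349) and by -1.64 in experimental lungs (adjusted p = 0.0526). On the mean of all probes the experimental calls of Gpam and Prdx6 were lost (1.37 and -1.04, adjusted p = 0.0577 and 0.0655). Mboat2 and Flvcr2 passed in experimental lungs under that setting (-1.70 and -1.52, limma adjusted p = 0.0377 and 0.0465). With each array left out in turn, the control calls of Flvcr2, Mboat2, Pla2g1b and Pla2g4a held in 2 of 8 fits each and those of Gpam, Prdx6 and Slc44a4 in 0, and in experimental lungs that of Pla2g4a held in 4 and those of Gpam, Pla2g1b and Prdx6 in 0.

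**Figure D4:**
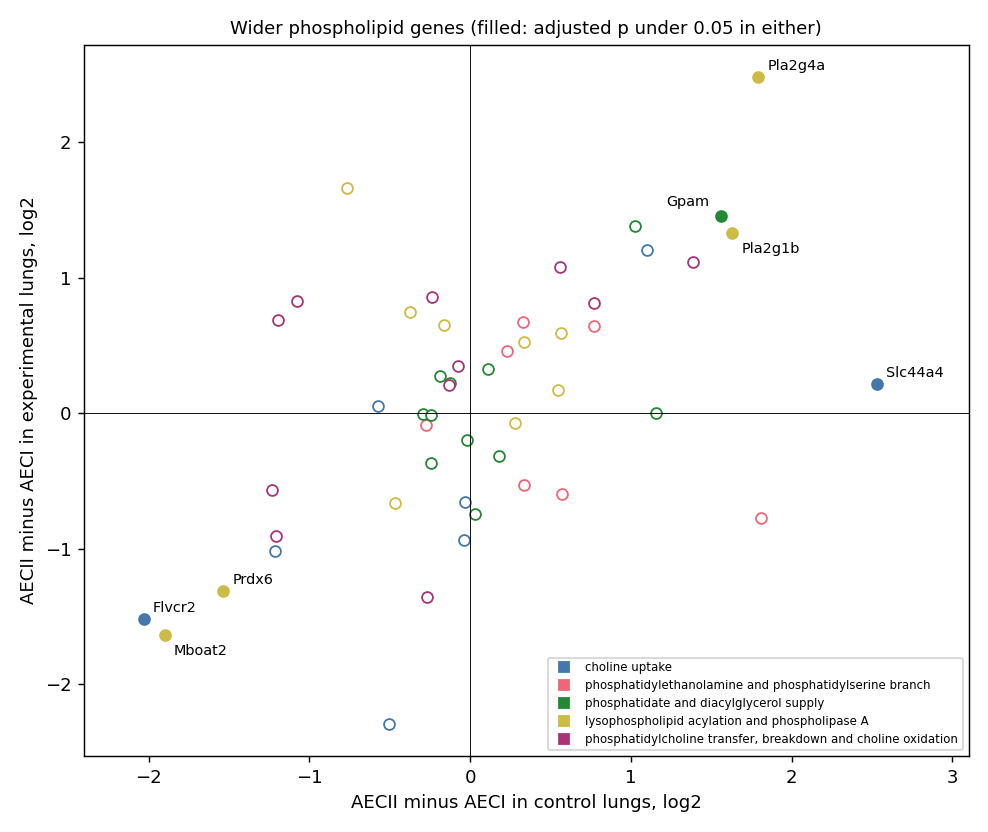
Log2 difference AECII minus AECI in control lungs (horizontal axis) and in experimental lungs (vertical axis) for the 50 wider phospholipid genes, coloured by role; filled and named points have a limma adjusted p under 0.05 in either comparison. Pla2g4a (1.79, 2.48), Gpam (1.56, 1.46) and Pla2g1b (1.63, 1.33) lie at the upper right, Prdx6 (-1.54, -1.31), Flvcr2 and Mboat2 at the lower left, and Slc44a4 (2.53, 0.22) near the horizontal line.

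Among 11109 named genes above the median level, those whose signal ran most like that of Lpcat1 over the 8 arrays were Pabpn1 (Pearson r = 0.996), Slco4c1, Srcin1, Nectin1 and Itga9 (0.990, 0.989, 0.989 and 0.988). Those most like Pcyt1a were Atp13a3 (0.970), Ubxn4, Dhps, Atp1b1 and Surf2 (0.968, 0.965, 0.957 and 0.956). The 8 arrays share 4 groups, so these values mostly describe group means.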

How the data were processed

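RNA of the sorted cells was amplified, and 2 µg of cDNA per sample was labelled with Cy5 and hybridised. The deposited log2 signal had been normalized between arrays by the authors (sorted values differed by 0.0056 or less between arrays), and the log base was inferred from its range. In the submitters' processing notes limma is the tool named, with no version. Background correction and detection flags were not given in the sources used here. Of 62976 spots, 43941 (69.8%) had 1 gene symbol, updated to RefSeq symbols of GRCm38.p6.

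Groups and replicate numbers came from the sample titles. limma 3.58.1 (R 4.3.3) was fitted with 4 group means over all 8 arrays with a constant prior variance (4 residual and 2.26 prior degrees of freedom), and p-values were adjusted by Benjamini-Hochberg over 24306 genes at a threshold of 0.05. With 2 arrays a group the smallest p of an exact permutation test is 0.33. The fit was run on simulated data with independent noise and differences added to AECII control alone. The added differences were recovered and larger ones were called more often. Sex imbalance and shared litters were not simulated. Tables and motifs were made with Python 3.11.15. The number of arrays limits the precision.

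The 10 genes, wider genes and markers were chosen with earlier results of these data known. Named were all 10 genes, every wider gene called, and the 5 genes most like Lpcat1 and Pcyt1a. The alternatives were median centring, the mean of probes, genes above the median level, other variance priors, array weights, a replicate block, only the groups compared, and arrays left out. The probe by probe values and the average over both populations were added after seeing the data.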

Additional observations from a re-analysis of the deposited data

Results flagged for a closer look

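Chkb, the gene of choline kinase beta, stood on opposite sides of the populations in the 2 genotypes. In control lungs both AECII arrays (10.96 and 10.98) were below both AECI arrays (11.56 and 11.02), and in experimental lungs both AECII arrays (10.73 and 10.58) were above both AECI arrays (10.33 and 10.37). The population difference was -0.32 in control and 0.30 in experimental lungs, and these differed by 0.62 (SE 0.37, interval -0.28 to 1.53, limma adjusted p = 0.665). With each array left out in turn this last value ran from 0.35, without AECI control replicate 1, to 0.89. The control population difference ran from -0.59 to -0.05, the latter without AECI control replicate 1, an array of male pattern. Of all genes, 22.1% were lower in AECII without overlap in control lungs and 28.2% were higher in experimental lungs. The share that did both was not counted.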

How the results depend on the processing

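Over 60 results, 1049 values were computed under other settings: 866 kept their direction and their side of the threshold, 126 lost a call, 18 gained one and 39 changed sign. Of the 10 genes called between populations in control lungs (1), the count was 2 with genes above the median level, 2 with a variance trend, 0 with only the groups compared, 0 without both control arrays of male pattern and 0 to 1 with each array left out. Lpcat1 had an adjusted p of 0.140 with only the groups compared. In experimental lungs the count was 3 with genes above the median level and 4 with a trend, and for the average over both populations it was 2 with a trend. The cause was not tested.

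Replicate numbers did not pair the arrays (correlations of deviations between arrays of the same number, -0.10 to 0.0399). The replicate block, a term for replicate number shared by all groups, was therefore not a paired fit. Control arrays of the same number differed in sex pattern between the populations. With the block the control population count was 0 (Lpcat1, limma adjusted p = 0.0601) and no other count of the 10 genes changed. Among all genes it took the control and experimental population calls from 689 and 618 to 311 and 276. Over all genes the control and experimental population counts were 1920 and 2685 with a trend, 1586 and 2360 among 12153 genes above the median level, 0 and 0 with only the groups compared, 0 and 0 without both control arrays of male pattern, and 0 to 463 and 0 to 586 with 1 array left out. Between genotypes they were 74 in AECI, 61 in AECII and 324 in the average over both populations with a trend, against 1, 0 and 1, and 2, 4 and 74 among genes above the median level.

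Changes of sign came mostly from values near 0 or from other probes. Between populations in control lungs Pcyt1b became 0.0601 without the arrays of male pattern, Slc44a1 -1.09 on the third probe, and Pemt 0.40 on the mean of probes, 0.21 without the arrays of male pattern and 1.15 on its second probe. In experimental lungs Slc44a1 became -0.33 on the third probe. Between genotypes in AECI Chpt1 became 0.00345 on its second probe, and Lpcat3 0.0871 on the mean of probes and 0.26 on its second probe. In AECII Chpt1 became -0.0955 without the arrays of male pattern, Lpcat1 0.11 on the mean of probes and 0.24 on its second probe, Slc44a1 -0.35 on the fourth probe, and Pemt -0.0273 with array medians subtracted, -0.35 without the arrays of male pattern and -0.0209 on its second probe. The Chka difference of genotype differences became 0.0432 and 0.0203 on its other probes.

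With 1 array left out, values between populations in control lungs ran from -0.0318 to 0.24 (Pcyt1a), -0.49 to 0.25 (Pcyt1b) and -0.77 to 0.0545 (Pemt), and in experimental lungs from -0.13 to 0.19 (Chka) and -0.0753 to 2.21 (Pcyt1b). Between genotypes in AECI they ran from -0.53 to 0.35 (Lpcat3), -0.19 to 0.13 (Slc44a1) and -0.0290 to 0.28 (Pemt). In AECII they ran from -1.34 to 0.94 (Pcyt1b), -0.0955 to 0.28 (Chpt1), -0.16 to 0.14 (Lpcat1), -0.0287 to 0.22 (Lpcat3), -0.0775 to 0.46 (Slc44a1) and -0.35 to 0.47 (Pemt). The Chka difference of genotype differences ran from -0.27 to 0.0623. All 7 control calls of the wider genes were lost with the replicate block (adjusted p = 0.0552 to 0.0688). These fits took the spread of a single remaining array from the other groups.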
